A study of Mus musculus with 30 samples.

Results

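The epithelial-mesenchymal state genes are 10 mouse genes chosen by name, and all 10 were found by their Ensembl identifiers among the 53431 genes of the deposited tables. They fall into 3 roles. The epithelial adhesion genes are Cdh1, which encodes E-cadherin, and Epcam, an epithelial cell adhesion molecule. The mesenchymal adhesion and structure genes are Cdh2, which encodes N-cadherin, Vim, which encodes the intermediate filament protein vimentin, and Fn1, which encodes the matrix protein fibronectin. The inducing factors are Zeb1, Zeb2, Snai1, Snai2 and Twist1, transcription factors of the Zeb, Snail and Twist families. In GRCm38 the epithelial genes lie at chr8:106603351-106670246 (Cdh1) and chr17:87635979-87651129 (Epcam), both on the plus strand. Cdh2 lies at chr18:16588877-16809246 and Fn1 at chr1:71585520-71653200, both on the minus strand, and Vim at chr2:13573927-13582826 on the plus strand. Of the factors, Zeb1 (chr18:5591860-5775467), Snai1 (chr2:167538195-167542814), Snai2 (chr16:14705852-14709385) and Twist1 (chr12:33957671-33959829) are on the plus strand and Zeb2 (chr2:44983632-45117395) on the minus strand.

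Epithelial cells are joined by E-cadherin at their junctions and lie on a basement membrane. In the epithelial-mesenchymal transition cells give up these junctions, make N-cadherin, vimentin and fibronectin in their place and become motile. Zeb and Snail proteins bind E-box motifs near the start of Cdh1 and other epithelial genes and repress them, and Twist proteins act in the same program. In carcinoma of the colon this program has been linked to invasion and spread.

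Both cell lines of the study, CT-26 and Colon 26, come from colon carcinoma of BALB/c mice, and each stands for 1 model. RNA-seq was performed on 3 cultures of each line and on 4 tumors of each model at 100, 400 and 800 mm3, which makes 30 libraries in 8 groups. The tumors grew subcutaneously in the flank of female BALB/c mice with an intact immune system, and no label gives the age of the mice. A protocol text that all 30 samples share, cultures included, describes dosing of mice with antibodies to CTLA-4, PD-1 and PD-L1, and no label assigns an antibody to any sample. Whether a tumor had been dosed is thus not given in the sources used here, and every tumor value below carries that limit. The volumes at harvest in the 3 size groups spanned 103.33–145.86, 400.47–464.68 and 810.36–938.57 mm3 in CT-26 and 102.9–124.88, 401.52–466.73 and 807.93–963.18 mm3 in Colon 26. Replicate numbers below are only names, and nothing in the labels says which cultures were grown apart, so p-values measure the spread between these libraries.

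Total counts on genes were 21384730 to 39722586 per library, and the 3 Colon 26 cultures were deeper (36042940 to 39722586) than the 3 CT-26 cultures (21384730 to 27856380). Cultures of either line and tumors carry library numbers of separate series in their labels, so the series and the line, or the series and growth as a tumor, cannot be told apart. Skeletal muscle genes (Ckm, Acta1, Myh4, Tnnt3) summed to 2323 CPM (counts scaled by the normalized library size) in replicate 1 of the Colon 26 tumors of 400 mm3 and to 1202 CPM in replicate 2 of those of 100 mm3, against at most 450 CPM in any other library. Skin keratinocyte genes (Krt5, Krt14, Krt1, Krt10, Dsg3, Trp63) summed to 82.0 CPM in replicate 4 of the CT-26 tumors of 800 mm3 and to 3.19 to 9.96 CPM in all other libraries. Colon epithelium genes (Cdx2, Vil1, Krt20, Cdh17, Lgr5, Muc2) summed to 27.5 to 28.2 CPM in CT-26 cultures and 15.3 to 16.7 CPM in Colon 26 cultures, where Lgr5, with Vil1 in CT-26 and Muc2 in Colon 26, was at no more than 3 counts in every library. In tumors they summed to 95.6 to 242.5 CPM in CT-26 and 10.6 to 33.4 CPM in Colon 26.

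The sequences before the starts of 2 members are shown because they hold the motif that links the inducing factors to epithelial genes. Each is the 250 bases before the RefSeq start of transcription in GRCm38.p6, written 5′ to 3′ on the strand of the gene, with capitals for the E-box, CACCTG or its reverse complement CAGGTG, searched on both strands. Epcam (chr17:87635729-87635978, plus strand, GC content 56.4%) holds 2 of them, which begin 187 and 19 bases before the start. Snai1 (chr2:167537945-167538194, plus strand, GC content 70.0%) holds 1, which begins 126 bases before the start.
Epcam: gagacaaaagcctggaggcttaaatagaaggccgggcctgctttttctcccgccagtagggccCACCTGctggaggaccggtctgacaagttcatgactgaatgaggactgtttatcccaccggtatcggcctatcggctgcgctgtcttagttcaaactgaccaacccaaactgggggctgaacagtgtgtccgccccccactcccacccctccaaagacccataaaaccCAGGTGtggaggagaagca
Snai1: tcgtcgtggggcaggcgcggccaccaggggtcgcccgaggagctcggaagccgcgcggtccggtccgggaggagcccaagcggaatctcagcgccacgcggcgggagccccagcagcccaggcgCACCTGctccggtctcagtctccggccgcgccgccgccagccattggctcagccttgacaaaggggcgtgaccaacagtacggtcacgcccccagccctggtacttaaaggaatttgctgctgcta
The same windows of Twist1, Vim and Zeb2 held no match, and at least 1 match was found in 17.2% of 32851 such windows across the genome. RefSeq entries were matched for 5 of the 10 members. A match is a string of letters and was not tested as a binding site.

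**Figure D1:**
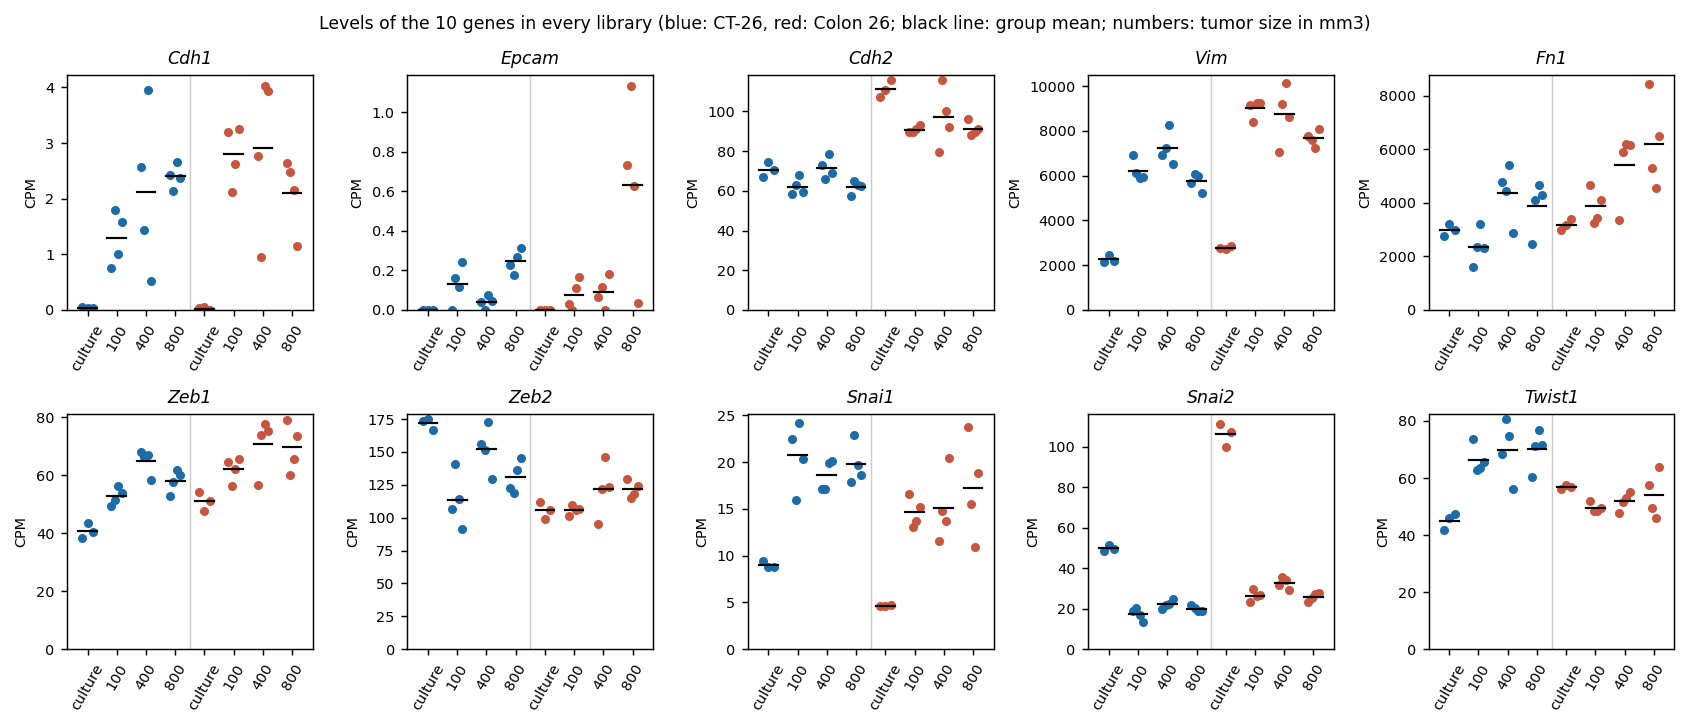
Level of each of the 10 genes in every library, in CPM on a linear axis from 0, by group along the horizontal axis (culture, then tumors of 100, 400 and 800 mm3). Each point is 1 library, blue for CT-26 and red for Colon 26, and the black line is the group mean. Cdh1 lies near 0 in all 6 cultures, Vim lies higher in all 24 tumors than in any culture, and Snai2 lies lower in all 24 tumors than in any culture.

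By level per gene length, given by the deposited FPKM values, which divide the fragments on a gene by its length and by the library size, the members spanned a wide range and the mesenchymal genes stood far above the epithelial ones in every group. Vim had group means of 1022 to 4198 FPKM and ranked between place 4 and place 78 of all genes in the 30 libraries. Fn1 had means of 296 to 788 FPKM and ranked between place 94 and place 403. Among the factors, Twist1 had means of 27.4 to 41.9 FPKM, Zeb2 of 17.4 to 33.6, Snai2 of 8.51 to 54.4, Zeb1 of 6.95 to 12.3 and Snai1 of 2.99 to 12.7. Cdh2 had means of 14.7 to 27.6 FPKM, while Cdh1 reached at most 0.667 and Epcam at most 0.316. In the 24 tumors the FPKM of Cdh2 was 21.3 to 146 times that of Cdh1, with a median of 38.0.

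Comparisons used edgeR's quasi-likelihood test with p-values adjusted over all genes tested. A gene is called DE where its adjusted p was no more than 0.1 and its level differed by 2-fold or more in either direction, and "passed the test" below refers to the adjusted p alone. Between the cultures 1 of 8 tested members was DE, against 22.9% of all genes, and all 8 passed the test, against 82.6%. The groups did not overlap in 7 of these 8, against 79.7% of genes tested. Between tumors of 100 mm3 1 of 9 tested members was DE (13.2% of all genes) and 8 passed (56.5%). At 400 mm3 0 of 9 were DE (14.3%) and 4 passed (52.2%), all 4 at an unadjusted p under 0.05, and at 800 mm3 0 of 9 were DE (14.1%) and 6 passed (59.4%), again all 6 at an unadjusted p under 0.05. Between tumors of 100 mm3 and cultures 4 of 9 were DE in CT-26 (32.2%) and 4 of 9 in Colon 26 (26.9%), and in either model these were Cdh1, Vim, Snai1 and Snai2. In each of these last 2 comparisons 8 members passed the test, against 75.5% of all genes in CT-26 and 78.9% in Colon 26. In each of the 2, the groups did not overlap in 7 members, against 72.4% of genes tested in CT-26 and 75% in Colon 26. Cdh1 is among the 4, the 8 and the 7 in both models. It was at or under 3 counts in every culture. Cdh1 thus entered these counts by passing edgeR's filter on low counts through the tumors alone, and it could only rise. Both tumor comparisons with cultures hold the 100 mm3 tumors of the model difference, so they share libraries with it.

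Cdh1 was close to absent from the cultures. The CT-26 cultures held 1 count each and the Colon 26 cultures 1, 2 and 0, so all 6 were at or under the limit of 3 counts taken here as the floor, which was 0.0722 to 0.140 CPM in a culture. In the 24 tumors Cdh1 had 12 to 131 counts. Cdh1 thus passed the filter on low counts through the tumors alone, and against cultures it could only rise. CT-26 tumors of 100 mm3 had 0.760, 1.80, 1.01 and 1.58 CPM, and Colon 26 tumors of that size 3.20, 2.12, 2.62 and 3.26 CPM. Every tumor stood above every culture, and the lowest of these Colon 26 tumors stood above the highest of these CT-26 tumors. Measured against the floor, Cdh1 was at least 10.3-fold higher in the CT-26 tumors of 100 mm3 than in CT-26 cultures (adjusted p = 8.43e-05) and at least 37.1-fold higher in those of Colon 26 than in its cultures (adjusted p = 1.52e-06). Even so, its mean in tumors of 100 mm3 was 0.290 ± 0.113 FPKM in CT-26 and 0.645 ± 0.127 FPKM in Colon 26 (SD, n = 4 each).

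Colon 26 tumors of 100 mm3 had more Cdh1, by a log2 fold change of 1.09 ± 0.29 (SE, adjusted p = 0.0118). Without replicate 1 of the CT-26 tumors it was 0.93, under the fold required, with an adjusted p of 0.0188, and across alternatives the adjusted p ran from 0.00196 to 0.129. At 400 mm3 the groups overlapped, with 2.56, 1.43, 3.95 and 0.513 CPM in CT-26 and 2.76, 0.948, 4.03 and 3.94 CPM in Colon 26 (log2 fold change 0.46 ± 0.60, adjusted p = 0.568). At 800 mm3 they overlapped again, with 2.42, 2.15, 2.66 and 2.37 CPM in CT-26 and 2.65, 2.48, 2.15 and 1.14 CPM in Colon 26 (-0.19 ± 0.25, adjusted p = 0.552). The difference between the models was thus seen in the smallest tumors, and the test of its change from 100 to 800 mm3 gave -1.29 ± 0.39 with an adjusted p of 0.191. With all 24 tumors in one fit and size as a covariate, an alternative chosen after seeing the data, the difference was 0.48 ± 0.27 (adjusted p = 0.129). In that fit 0 of 9 members were DE, against 14.6% of all genes, and 8 passed the test, against 72%, the exception being Cdh1.

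Epcam was at 0 counts in all 6 cultures and did not pass the filter on low counts in any of these comparisons, so the test used throughout gave it no value. In 24 tumors it had 0 to 38 counts, and 13 of them were at or under 3 counts. The highest values came from Colon 26 tumors of 800 mm3, with 0.734, 1.14, 0.628 and 0.0369 CPM, of which 3 stood above all other libraries and the last did not. CT-26 tumors of 800 mm3 had 0.227, 0.176, 0.270 and 0.312 CPM. Epcam was tested in some of the alternatives, whose values are given as a description. For Colon 26 tumors of 800 against 100 mm3 the adjusted p was 0.0834 with no filter, 0.0738 with all 30 libraries in one fit and 0.0346 with DESeq2, and for Colon 26 against CT-26 at 800 mm3 it was 0.0953, 0.108 and 0.117. Against cultures, tumors of 100 mm3 had an adjusted p of 0.0351, 0.0238 and 0.0858 in CT-26 and of 0.0526, 0.0431 and 0.111 in Colon 26, and 5 of these 8 tumors were at or under 3 counts. At 0 counts in every culture, Epcam could only rise in the comparisons with cultures. Without replicate 4 of the Colon 26 tumors of 800 mm3 Epcam passed the filter and was DE in both comparisons at that size, but it passed through the 3 high libraries alone, so these calls follow from the filter and the library left out. Since skin, gland and other epithelium carry both Cdh1 and Epcam, the keratinocyte genes were set beside them. In the library with 82.0 CPM of keratinocyte genes, Cdh1 was 2.37 CPM and Epcam 0.312 CPM, and Krt1 and Dsg3 were at or under 3 counts in every library of the other 7 groups. In Colon 26 tumors of 800 mm3 the keratinocyte genes summed to 4.32 to 5.16 CPM. The simple keratins Krt18 and Krt19 had 1 to 144 and 74 to 272 counts there. Krt19 was DE and higher than at 100 mm3 (1.45 ± 0.36, adjusted p = 0.0664), the only such gene in the epithelial list described below. The part of normal epithelium in the Cdh1 and Epcam reads was not tested.

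Cdh2 differed between the models in every setting. CT-26 cultures had 67.0, 74.5 and 70.7 CPM and Colon 26 cultures 107.5, 110.9 and 115.6 CPM. At 100 mm3 the values were 58.4, 62.9, 68.0 and 59.3 CPM in CT-26 and 89.4, 89.5, 91.3 and 93.1 CPM in Colon 26. The groups did not overlap in cultures or at any of the 3 tumor sizes, which held in tumors of 100, 400 and 800 mm3 for 47.9%, 43.5% and 48.3% of genes tested. Colon 26 was 1.63-fold higher in cultures (adjusted p = 5.74e-11) and 1.45-fold, 1.36-fold and 1.47-fold higher in tumors of 100, 400 and 800 mm3 (adjusted p = 9.17e-05, 0.0120 and 3.06e-05). Against cultures, Cdh2 fell in tumors of 100 mm3 by 0.18 ± 0.07 on the log2 scale in CT-26 (adjusted p = 0.0515) and by 0.29 ± 0.04 in Colon 26 (adjusted p = 6.78e-05). The CT-26 change missed the test without replicate 2 of the cultures (adjusted p = 0.148, range over alternatives 0.0297 to 0.148).

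Vim rose in tumors of both models. Cultures had 2146, 2463 and 2178 CPM in CT-26 and 2779, 2736 and 2836 CPM in Colon 26. Tumors of 100 mm3 had 6941, 6111, 5895 and 5954 CPM in CT-26 and 9144, 8408, 9246 and 9268 CPM in Colon 26. All 24 tumors, at 5246 to 10120 CPM, lay above all 6 cultures. The rise was 2.77-fold in CT-26 (log2 1.47 ± 0.08, adjusted p = 2.45e-06) and 3.24-fold in Colon 26 (log2 1.70 ± 0.05, adjusted p = 1.56e-08). Colon 26 was above CT-26 by 1.28-fold in cultures (adjusted p = 1.57e-07), 1.44-fold at 100 mm3 (adjusted p = 3.12e-04) and 1.33-fold at 800 mm3 (adjusted p = 0.00120), without overlap. At 400 mm3 the groups overlapped (1.21-fold, adjusted p = 0.130).

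Fn1 varied more between tumors of one group. Its tumors had 1618, 2336, 3209 and 2313 CPM in CT-26 and 4668, 3263, 3431 and 4117 CPM in Colon 26 at 100 mm3, while cultures had 2754, 3206 and 2981 CPM in CT-26 and 2994, 3175 and 3386 CPM in Colon 26. Cultures of the lines overlapped, with a log2 difference of 0.15 ± 0.04 that passed the test (adjusted p = 0.00624) and did not pass with all 30 libraries in one fit (adjusted p = 0.801, range over alternatives 2.32e-13 to 0.801). Colon 26 tumors were higher at 100 mm3 (log2 0.70 ± 0.20, adjusted p = 0.0175) and at 800 mm3 (0.67 ± 0.22, adjusted p = 0.0289), and at 400 mm3 the difference was 0.30 ± 0.24 (adjusted p = 0.342). Against cultures the change was -0.32 ± 0.20 in CT-26 (adjusted p = 0.178) and 0.28 ± 0.12 in Colon 26 (adjusted p = 0.0580, passed under 8 of 12 alternatives). Reads of Fn1 could be shared with the antisense gene Apol7d, since the handling of strand is not given in the sources used here.

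The tumors were bulk tissue, in which fewer cells of a type and less RNA per cell cannot be told apart, and host cells came with the tumor cells. Leukocyte genes (Ptprc, Cd53, Laptm5, Csf1r, Cd3e, Itgam) summed to 0.241 to 5.91 CPM in cultures and to 263.8 to 1097 CPM in tumors. Endothelial genes (Pecam1, Cdh5, Kdr, Tek, Emcn) summed to 0.120 to 0.594 CPM in cultures and 58.7 to 195 CPM in tumors. Fibroblast genes (Pdgfra, Pdgfrb, Dcn, Lum, Col1a2, Col3a1, Fap) summed to 1153 to 1253 CPM in cultures, where Lum was at or under 3 counts, and to 2275 to 4194 CPM in tumors. In these 3 lists 6 of 6, 5 of 5 and 5 of 7 genes were DE and higher in tumors of 100 mm3 than in cultures in either model (22.2% of all genes in CT-26 and 20.8% in Colon 26), as were all 4 skeletal muscle genes. Genes at or under 3 counts in every culture of a line passed the filter on low counts through the tumors alone and could only rise. In CT-26 these were Cd3e, Emcn, Lum, Myh4 and Tnnt3. In Colon 26 they were Ptprc, Laptm5, Csf1r, Cd3e, Pecam1, Cdh5, Kdr, Emcn, Lum and all 4 skeletal muscle genes. The shares thus follow in part from the filter. Leukocytes, endothelium and fibroblasts are known to make vimentin, and fibroblasts to make fibronectin and several of the factors; their part in the tumor values of the members was not tested.

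**Figure D2:**
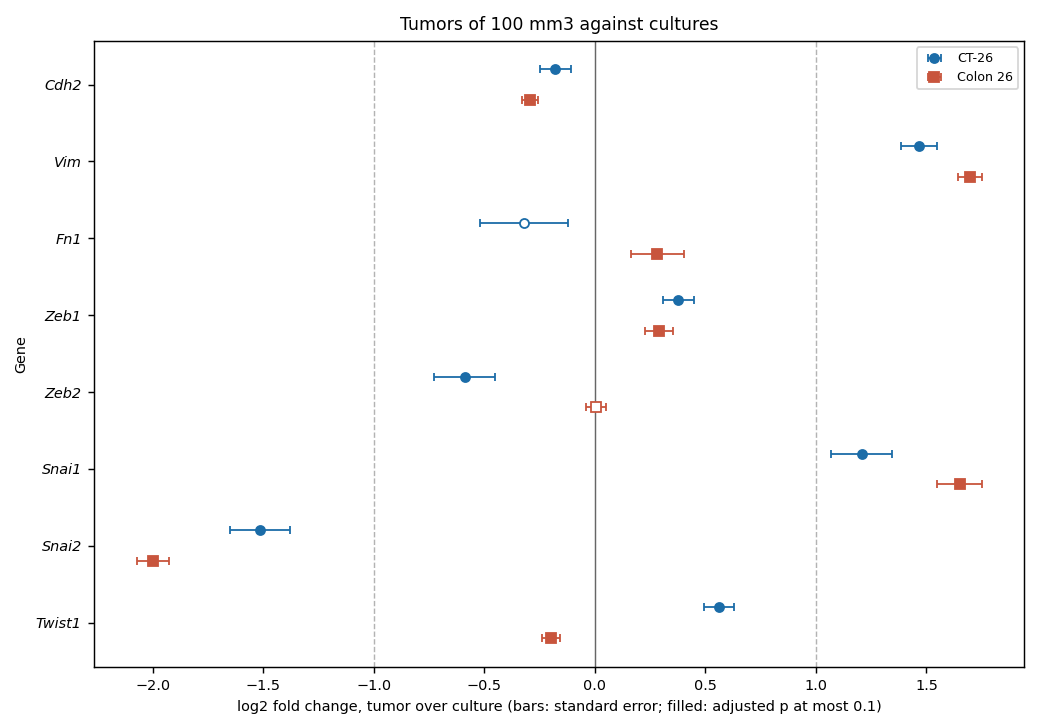
Log2 fold change of 8 members in tumors of 100 mm3 over cultures, with bars of 1 standard error, for CT-26 (blue circles) and Colon 26 (red squares). Filled symbols passed the test at an adjusted p of at most 0.1, and dashed lines mark a 2-fold change. Vim and Snai1 lie beyond the line to the right and Snai2 beyond the line to the left in both models, and Twist1 lies right of 0 in CT-26 and left of 0 in Colon 26.

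The inducing factors did not move together. Snai2, which encodes the factor Slug, had the largest difference between the lines in culture among the 8 members tested, with 48.6, 51.5 and 49.7 CPM in CT-26 and 111.3, 99.8 and 107.1 CPM in Colon 26. The difference was 2.20-fold (log2 1.14 ± 0.04, adjusted p = 2.13e-13), and Snai2 was the only member DE between cultures. Tumors of 100 mm3 had 18.8, 20.2, 17.1 and 13.2 CPM in CT-26 and 23.3, 29.6, 26.3 and 26.7 CPM in Colon 26. All 24 tumors, including the larger ones, lay below all 6 cultures. It fell 2.86-fold in CT-26 (adjusted p = 2.37e-05) and 4.0-fold in Colon 26 (adjusted p = 3.64e-08). Colon 26 remained higher at 100, 400 and 800 mm3, by 1.52-fold, 1.47-fold and 1.30-fold (adjusted p = 0.00519, 0.00125 and 0.00295), with no overlap at any size.

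Snai1, which encodes the factor Snail, went the opposite way. Cultures had 9.45, 8.76 and 8.76 CPM in CT-26 and 4.65, 4.64 and 4.71 CPM in Colon 26. Tumors of 100 mm3 had 22.4, 15.9, 24.2 and 20.3 CPM in CT-26 and 16.6, 13.1, 13.7 and 15.2 CPM in Colon 26. The rise was 2.31-fold in CT-26 (log2 1.21 ± 0.14, adjusted p = 9.24e-05) and 3.14-fold in Colon 26 (log2 1.65 ± 0.10, adjusted p = 7.61e-07), and all 24 tumors lay above all 6 cultures. CT-26 was higher than Colon 26 in cultures by 1.85-fold (adjusted p = 1.08e-07) and in tumors of 100 mm3 by 1.42-fold (adjusted p = 0.0128), with overlap in the tumors. At 400 and 800 mm3 the log2 difference of Colon 26 from CT-26 was -0.30 ± 0.17 and -0.20 ± 0.20 (adjusted p = 0.189 and 0.431).

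Twist1 turned its direction between culture and tumor. In culture Colon 26 was the higher line, with 56.0, 57.6 and 56.9 CPM against 41.9, 46.0 and 47.4 CPM in CT-26 (log2 0.38 ± 0.04, adjusted p = 2.78e-07). In tumors of 100 mm3 CT-26 was the higher, with 73.5, 62.7, 63.6 and 65.7 CPM against 51.9, 48.3, 48.4 and 49.3 CPM in Colon 26 (log2 -0.43 ± 0.06, adjusted p = 3.86e-04). The groups did not overlap in either setting. Twist1 rose by 0.56 ± 0.07 on the log2 scale in CT-26 (adjusted p = 1.35e-04) and fell by 0.20 ± 0.04 in Colon 26 (adjusted p = 0.00146). The test of the change of the model difference from cultures to tumors gave -0.81 ± 0.08 (adjusted p = 1.73e-06), against a median of -0.02 over all genes. CT-26 stayed higher at 400 mm3 (-0.43 ± 0.11, adjusted p = 0.0119) and at 800 mm3 (-0.38 ± 0.11, adjusted p = 0.0158), where the groups overlapped.

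Zeb2 was higher in CT-26 cultures, with 173.8, 174.8 and 166.7 CPM, than in Colon 26 cultures, with 111.6, 99.0 and 106.1 CPM (1.57-fold, adjusted p = 1.28e-10). In tumors of 100 mm3 CT-26 had 106.8, 141.0, 114.4 and 91.7 CPM and Colon 26 had 101.3, 109.5, 106.0 and 106.8 CPM, and these groups overlapped (log2 -0.11 ± 0.12, adjusted p = 0.470). At 400 mm3 CT-26 had 156.1, 151.7, 172.4 and 129.4 CPM and Colon 26 had 95.5, 121.5, 146.5 and 123.4 CPM. The groups overlapped there too, and the difference passed the test (-0.33 ± 0.13, adjusted p = 0.0786) and did so under 6 of 13 alternatives (range 0.0149 to 0.179). At 800 mm3 it was -0.11 ± 0.08 (adjusted p = 0.248), and with all 24 tumors in one fit it was -0.15 ± 0.07 (adjusted p = 0.0643). Zeb2 fell by 0.59 ± 0.14 on the log2 scale from culture to tumor in CT-26 (adjusted p = 0.00494), while in Colon 26 the change was 0.01 ± 0.05 (adjusted p = 0.892). The model difference changed by 0.55 ± 0.16 from cultures to tumors (adjusted p = 0.0111). Macrophages are known to express Zeb2. The leukocyte sums given above were higher in tumors than in cultures of both models, and the part of leukocytes in the Zeb2 values was not tested. Zeb1, the other member of the family, rose in tumors of 100 mm3 by 0.38 ± 0.07 in CT-26 (adjusted p = 0.00138) and 0.29 ± 0.06 in Colon 26 (adjusted p = 0.00268). Its cultures had 38.2 to 43.5 CPM in CT-26 and 47.5 to 54.2 CPM in Colon 26, and Colon 26 was higher by 0.37 ± 0.05 (adjusted p = 3.77e-06). With all 24 tumors in one fit Zeb1 was also higher in Colon 26, by 0.23 ± 0.05 (adjusted p = 5.84e-04). Zeb1 overlaps the gene Gm10125 on the opposite strand and Zeb2 overlaps Zeb2os, Gm27761 and Mir5129, and reads in their shared exons could belong to either gene.

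**Figure D3:**
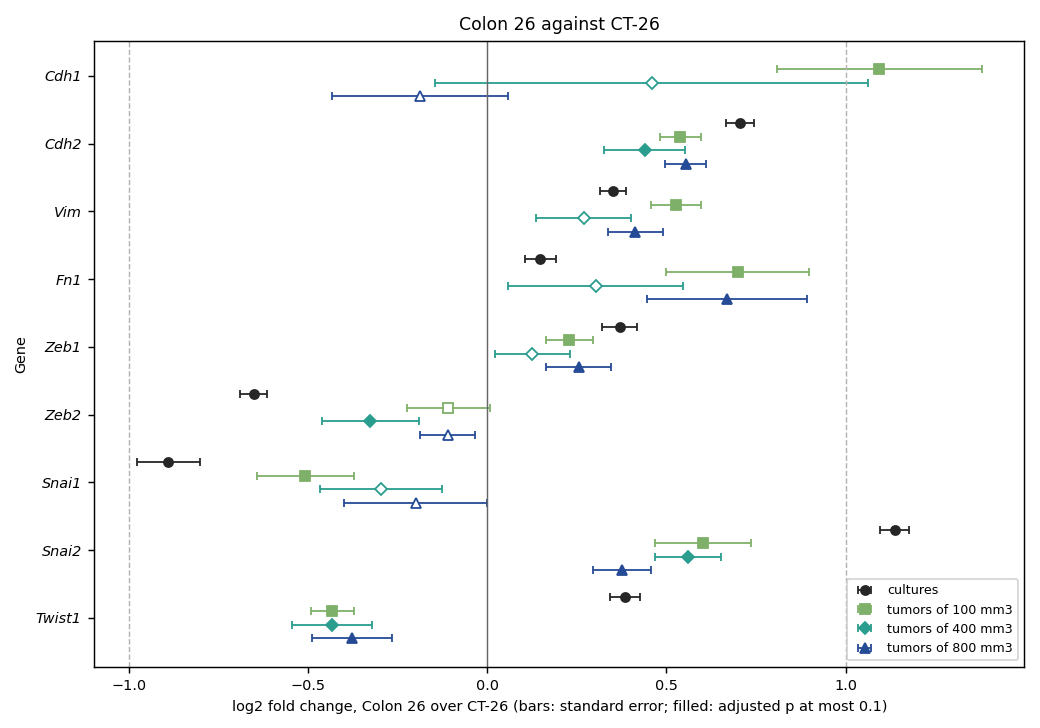
Log2 fold change of Colon 26 over CT-26 for 9 members, with bars of 1 standard error, in cultures (black circles) and in tumors of 100 (light green squares), 400 (teal diamonds) and 800 mm3 (blue triangles). Filled symbols passed the test at an adjusted p of at most 0.1, and dashed lines mark a 2-fold change. Cdh2 and Snai2 lie right of 0 with filled symbols in all 4 comparisons, Snai1 and Zeb2 lie left of 0, and Twist1 lies right of 0 in cultures and left of 0 in all tumors.

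From culture to tumor the difference between the models was tested as an interaction in 9 members. Of these 0 were DE, against 17.6% of all genes, and 5 passed the test on the adjusted p, against 51% of all genes; the 5 also had an unadjusted p under 0.05. They were Twist1 and Zeb2 (above), Snai2 (-0.53 ± 0.16, adjusted p = 0.0164), Snai1 (0.39 ± 0.17, adjusted p = 0.0790) and Fn1 (0.56 ± 0.25, adjusted p = 0.0935). The differences in Snai1 and Snai2 became smaller in tumors than in cultures and that in Fn1 became larger. Snai1 passed under 8 and Fn1 under 7 of 19 alternatives, while the highest adjusted p was 0.207 for Snai1 and 0.184 for Fn1.

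Across growth of the tumors from 100 to 800 mm3 few members passed the test. In CT-26, edgeR found 0 DE members and 0 DE genes at 400 or 800 mm3 against 100 mm3 (0% of all genes), although 5 of 9 members and 3356 genes at 400 mm3, and 2 members and 1610 genes at 800 mm3, had an unadjusted p under 0.05. DESeq2 also called 0 members there and 150 and 39 genes. Fn1 at 400 mm3 had 4769, 4452, 5426 and 2866 CPM against 1618, 2336, 3209 and 2313 CPM at 100 mm3 (log2 0.89 ± 0.24, adjusted p = 0.116), and the change of Cdh1 at 800 mm3 was of like size (0.88 ± 0.27, adjusted p = 0.418). Without replicate 4 of the tumors of 400 mm3 the change of Fn1 was 1.05 with an adjusted p of 0.0459, and Fn1 was then DE. In Colon 26, 0 of 9 members were DE at 400 mm3 (0.0131% of all genes) with 2 at an unadjusted p under 0.05, and 0 of 9 at 800 mm3 (1.33%) with 3. These 3 passed on the adjusted p, against 6.67% of all genes. Vim fell by 0.24 ± 0.06 (adjusted p = 0.0792), and Fn1 rose by 0.67 ± 0.19 (adjusted p = 0.0949) and Zeb2 by 0.19 ± 0.05 (adjusted p = 0.0688). The groups of different size did not overlap in 1 member, Zeb1, in CT-26 at 400 mm3 (13.1% of genes tested), in 1, Cdh1, in CT-26 at 800 mm3 (5.07%), in 0 in Colon 26 at 400 mm3 (6.95%) and in Vim and Zeb2 in Colon 26 at 800 mm3 (13.2%). On the adjusted p alone 0 members passed in Colon 26 at 400 mm3 (0.0197% of all genes). The changes of Vim, Fn1 and Zeb2 at 800 mm3 each missed the test under 7 or more of 13 alternatives. The change of the model difference from 100 to 800 mm3 made 0 members DE (0.0308% of all genes) and 0 passed on the adjusted p alone (0.0801%), 1 of them, Cdh1, at an unadjusted p under 0.05, and DESeq2 called Cdh1 (-1.28 ± 0.40, adjusted p = 0.0725, range over alternatives 0.0725 to 0.357).

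The wider setting of the members was read from 5 gene lists. Epithelial junction and keratin genes were almost silent in culture. Of 28 such genes, 3 reached a mean of 1 FPKM in CT-26 cultures and 3 in Colon 26 cultures, and 15 and 19 were at or under 3 counts in every library. Tjp1, a tight junction scaffold, was on in the cultures of both lines (35.3 FPKM in CT-26 and 36.9 FPKM in Colon 26). Krt18, a keratin of simple epithelia, was on in CT-26 (10.99 FPKM) and Pkp3, a plakophilin of desmosomes, in Colon 26 (2.97 FPKM). Krt18 had at most 3 counts in every Colon 26 culture against 15.7 to 16.1 CPM in CT-26 cultures and was at least 211-fold lower in Colon 26 (adjusted p = 8.04e-15). Among tumors of 100 mm3 it was at least 117.8-fold lower in Colon 26 (adjusted p = 3.14e-06). At 800 mm3 the Colon 26 tumors had 1 to 144 counts of Krt18, and the log2 difference was -2.91 ± 0.66 (adjusted p = 0.00414). Pkp3 was higher in Colon 26, by a log2 fold change of 2.65 ± 0.13 in cultures (adjusted p = 2.25e-11) and 2.02 ± 0.20 in tumors of 100 mm3 (adjusted p = 6.72e-05).

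In cultures 8 of the 28 epithelial genes were tested, and 2 were DE and higher in Colon 26 (10.6% of all genes) and 4 DE and lower (12.3%), with a median log2 fold change of -0.71 against 0.01 over all genes. Muc1, a mucin of the cell surface, was among the higher (1.1 ± 0.31, adjusted p = 0.00382). Spint1, an inhibitor of membrane proteases, was at least 10.3-fold lower in Colon 26 (adjusted p = 1.94e-07). Of the lower genes, Krt18 and Spint1 were at or under 3 counts in every Colon 26 culture. They passed the filter on low counts through the CT-26 cultures alone and could only be lower in Colon 26. The share of lower genes and the median thus follow in part from the filter. At 100 mm3, 4 of 12 tested were higher in Colon 26 (6.17% of all genes) and 1 was lower (7.06%), with a median of 0.04 against -0.00225. Krt19, another keratin of simple epithelia, was higher (1.77 ± 0.34, adjusted p = 0.00231). The 1 lower gene was Krt18, at or under 3 counts in every Colon 26 tumor of 100 mm3, so it could only be lower there. Against cultures, 7 of 13 tested rose and 1 fell in CT-26 tumors of 100 mm3 (22.2% and 10.1% of all genes, median 1.25 against 0.06), and 8 of 11 rose and 0 fell in Colon 26 (20.8% and 6.11%, median 3.37 against 0.05). Of the 28 genes, 15 in CT-26 and 19 in Colon 26 were at or under 3 counts in every culture. Any of these that was tested passed the filter on low counts through the tumors alone and could only rise. The shares and medians thus follow in part from the filter. The same limits hold in the lists below for genes at or under 3 counts in every library of 1 group of a comparison. Tjp3, at 0 counts in all 6 cultures, was at least 6.67-fold higher in CT-26 tumors (adjusted p = 0.00133) and at least 16.5-fold higher in Colon 26 tumors (adjusted p = 9.20e-06). F11r, a junctional adhesion molecule also known from leukocytes, platelets and endothelium, was at least 117.9-fold higher in Colon 26 tumors (adjusted p = 1.02e-07). In CT-26 tumors St14, a membrane protease of epithelia, was at least 8.43-fold higher (adjusted p = 2.78e-04), and Spint1 fell by 2.66 ± 0.63 on the log2 scale (adjusted p = 0.00509). Cdh1 and these genes stood higher in tumors alongside the leukocyte, endothelial and fibroblast genes, and the source of their reads was not tested. The colon epithelium sums given above were also higher in all 12 CT-26 tumors than in CT-26 cultures, while in Colon 26 the 4 tumors of 100 mm3 (20.02 to 28.6 CPM) stood above the cultures and the larger tumors overlapped them. Of the colon epithelium genes 1 of 2 tested was DE and higher in CT-26 tumors of 100 mm3 and 1 of 3 in Colon 26. In both it was Krt20, a keratin of differentiated gut epithelium, which rose by 2.49 ± 0.10 (adjusted p = 7.09e-07) and 1.55 ± 0.18 (adjusted p = 4.98e-05). Among tumors of 100 mm3 Krt20 was lower in Colon 26 (-3.16 ± 0.17, adjusted p = 3.03e-06), where Cdh1 was higher. Cdx2 and Cdh17 of the same list went the other way and were DE and higher in Colon 26 (4.70 ± 0.44 and 1.11 ± 0.38, adjusted p = 4.31e-05 and 0.0376). Cdx2 was also higher in Colon 26 at 400 and 800 mm3 (adjusted p = 3.91e-04 and 3.04e-06).

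Factors that keep the epithelial state were mostly silent. Of 16, 3 reached a mean of 1 FPKM in each of the 8 groups, and in cultures these were Klf4, Klf5 and Foxa1. Esrp1 and Esrp2, splicing regulators of epithelia, and Ovol1 and Ovol2, repressors of the Zeb genes, had means of at most 0.0215 FPKM in cultures of either line. In each of these comparisons 4 of the 16 were tested, and 1 of 4 was DE between cultures, a share near the 22.9% of all genes (median -0.41 against 0.01). That was Klf4, a factor of differentiating gut epithelium, which was lower in Colon 26 by 1.31 ± 0.03 (adjusted p = 1.13e-15). Between the models 0 of 4 were DE in tumors of 100 mm3 (13.2% of all genes), with 2 passing on the adjusted p (56.5%). In tumors against cultures 0 of 4 were DE and higher and 2 lower in CT-26 (22.2% and 10.1% of all genes, median -0.80 against 0.06), and 1 was higher and 2 lower in Colon 26 (20.8% and 6.11%, median -0.71 against 0.05). Klf5, a factor of proliferating gut epithelium, fell by 1.35 ± 0.10 in CT-26 (adjusted p = 1.09e-05) and 1.13 ± 0.07 in Colon 26 (adjusted p = 5.59e-07). Grhl1, a grainyhead factor of epithelia, fell by 1.66 ± 0.21 (adjusted p = 1.59e-04) and 2.10 ± 0.20 (adjusted p = 1.32e-05). Klf4 rose by 1.01 ± 0.03 in Colon 26 tumors (adjusted p = 1.22e-08).

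**Figure D4:**
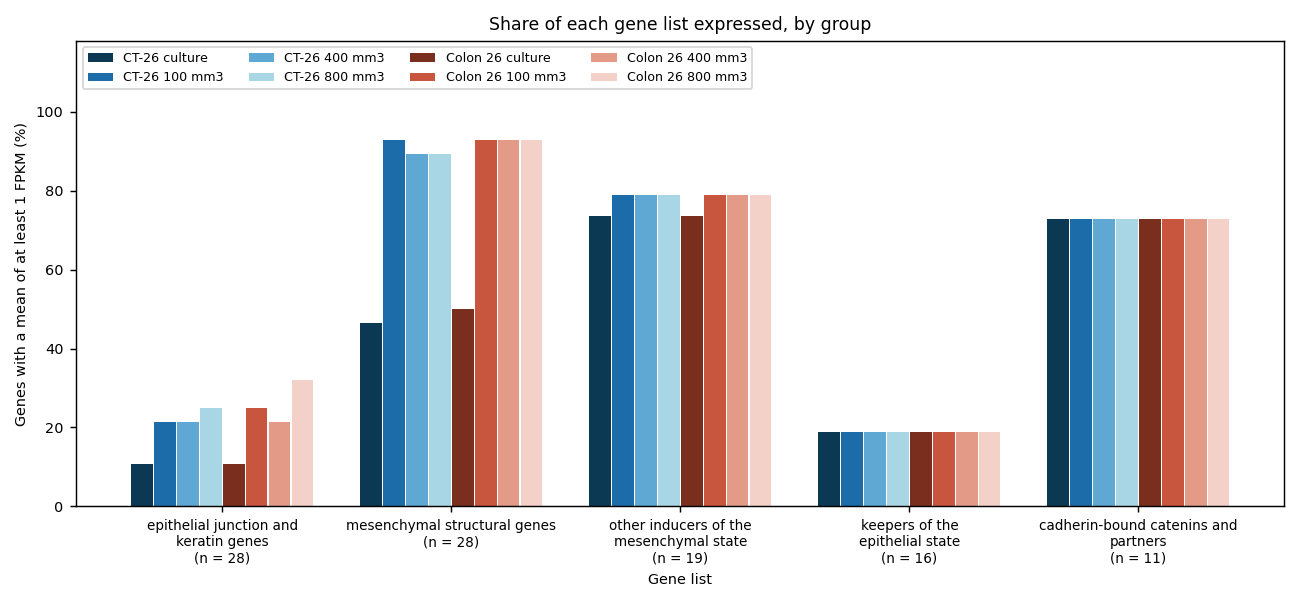
Percent of the genes of each of 5 lists with a mean of at least 1 FPKM in each of the 8 groups, as bars from 0 (blue shades for CT-26, red shades for Colon 26). Of the epithelial junction and keratin genes 10.7% reached this level in cultures of either line and 21.4 to 32.1% in tumors, and of the mesenchymal structural genes 46.4% and 50% did in cultures and 89.3 to 92.9% in tumors.

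Mesenchymal structural genes, 28 in all, held 11 DE genes between cultures and 14 between tumors of 100 mm3. In cultures 8 of 22 tested were DE and higher in Colon 26 (10.6% of all genes) and 3 lower (12.3%), with a median of 0.52 against 0.01 over all genes. In tumors of 100 mm3 13 of 27 were higher (6.17%) and 1 lower (7.06%), with a median of 0.91 against -0.00225. Fbn1, the fibrillin of elastic microfibrils, was higher in Colon 26 cultures by 4.03 ± 0.07 (adjusted p = 6.35e-17), and Nt5e, the ectonucleotidase CD73, was at least 9.24-fold higher there (adjusted p = 8.33e-07). The matrix proteins Tnc and Postn were lower in Colon 26 cultures (-3.04 ± 0.29 and -2.12 ± 0.41, adjusted p = 8.02e-08 and 1.95e-04), at CPM of no more than 1.71 in any culture. Postn lay on the other side in tumors of 100 mm3, with 110.9 to 137.9 CPM in Colon 26 and 19.8 to 40.8 CPM in CT-26 (1.99 ± 0.24, adjusted p = 1.88e-04). So did Tnc (1.74 ± 0.13, adjusted p = 1.39e-05), whose difference at 800 mm3 was 0.46 ± 0.27 (adjusted p = 0.175). Cnn1, a calponin of smooth muscle and myofibroblasts, was also higher in Colon 26 tumors (1.83 ± 0.47, adjusted p = 0.0102), and Mmp3, the protease stromelysin, was lower (-1.83 ± 0.42, adjusted p = 0.00598).

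Against cultures 19 of 26 mesenchymal structural genes were DE and higher in CT-26 tumors of 100 mm3 and 0 lower (22.2% and 10.1% of all genes, median 3.97 against 0.06), and 19 of 27 were higher and 1 lower in Colon 26 (20.8% and 6.11%, median 2.54 against 0.05). Lox, the enzyme that crosslinks collagen, was at least 257-fold higher in CT-26 tumors (adjusted p = 2.14e-06) and rose by 10.27 ± 0.16 on the log2 scale in Colon 26 (adjusted p = 5.27e-10). Itgb3, an integrin subunit, was at least 127-fold higher in CT-26 tumors (adjusted p = 1.31e-06), and Tnc rose by 11.15 ± 0.20 in Colon 26 tumors (adjusted p = 8.34e-10). The gene that was lower was Thbs1, thrombospondin, which fell by 1.1 ± 0.08 in Colon 26 tumors (adjusted p = 2.66e-06). In CT-26 tumors Thbs1 rose by 1.09 ± 0.30 (adjusted p = 0.0109). The fibroblast sums given above rose between the same groups.

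Other inducers of the mesenchymal state, 19 in all, held 8 DE genes between cultures and 4 between tumors of 100 mm3. In cultures 6 of 16 tested were DE and higher in Colon 26 and 2 lower (10.6% and 12.3% of all genes, median 0.74 against 0.01), and in tumors of 100 mm3 1 of 17 was higher and 3 were lower (6.17% and 7.06%, median -0.05 against -0.00225). Tgfb2, a ligand of the TGF-beta family, was higher in Colon 26 by 5.0 ± 0.20 in cultures (adjusted p = 1.15e-12) and 3.33 ± 0.21 in tumors (adjusted p = 5.02e-06). Sox4, a factor that cooperates with TGF-beta signals, was lower in Colon 26 by a log2 fold change of -4.93 ± 0.07 in cultures (adjusted p = 8.07e-18) and -2.62 ± 0.26 in tumors (adjusted p = 5.35e-05). The forkhead factor Foxc1 was higher in Colon 26 cultures (1.98 ± 0.06, adjusted p = 1.89e-14), whereas Foxc2 was at least 30.3-fold lower there (adjusted p = 1.93e-09) and lower in tumors (-3.77 ± 0.53, adjusted p = 4.45e-04).

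Against cultures 6 of 16 other inducers rose in CT-26 tumors of 100 mm3 and 0 fell (22.2% and 10.1% of all genes, median 0.80 against 0.06). In Colon 26 3 of 16 rose, a share near the 20.8% of all genes, and 2 fell (6.11%), with a median of -0.02 against 0.05. Prrx1, a homeobox factor of mesenchyme, rose by 1.62 ± 0.12 in CT-26 (adjusted p = 7.87e-06), and Tgfb2 by 1.34 ± 0.39 (adjusted p = 0.0146). In Colon 26 Sox4 rose by 2.39 ± 0.22 (adjusted p = 9.67e-06), Foxc1 fell by 1.75 ± 0.11 (adjusted p = 7.03e-07) and Id1, a helix-loop-helix inhibitor, fell by 1.13 ± 0.10 (adjusted p = 8.53e-06). The list counts Id1 and its relative Id2, although such an inhibitor is not itself an inducer. Both are among the 6 that rose in CT-26 (1.19 ± 0.17 and 1.33 ± 0.34, adjusted p = 3.00e-04 and 0.00793). Klf8, a factor that represses Cdh1, was at least 5.998-fold higher in Colon 26 tumors, with at most 1 count in a culture and at most 31 in a tumor (adjusted p = 8.07e-04).

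The catenins and partners that bind cadherins inside the cell were on throughout, with 8 of 11 at a mean of at least 1 FPKM in each of the 8 groups. Ctnna1 and Ctnnb1, the alpha and beta catenins, were at 145.8 and 103.2 FPKM in CT-26 cultures and at 127.2 and 114.7 FPKM in Colon 26 cultures, where Cdh1 was at the floor and Cdh2 was not. In cultures 2 of 8 tested were DE and higher in Colon 26 and 1 lower (10.6% and 12.3% of all genes, median 0.03 against 0.01), and in tumors of 100 mm3 0 of 10 were higher and 1 lower (6.17% and 7.06%, median -0.03 against -0.00225). Jup, plakoglobin, was higher in Colon 26 cultures (1.29 ± 0.06, adjusted p = 4.52e-12), as was Ctnnal1, an alpha-catenin relative (1.06 ± 0.05, adjusted p = 1.73e-11). Nectin2, an adhesion receptor of adherens junctions, was lower in Colon 26 by -2.74 ± 0.05 in cultures (adjusted p = 1.13e-16) and -1.25 ± 0.11 in tumors (adjusted p = 3.04e-05). Against cultures 4 of 10 rose and 1 fell in CT-26 (22.2% and 10.1% of all genes, median 0.41 against 0.06), and 3 of 10 rose and 0 fell in Colon 26 (20.8% and 6.11%, median 0.30 against 0.05). Nectin3, another nectin, was at least 10.9-fold higher in CT-26 tumors (adjusted p = 1.29e-04) and at least 33.9-fold higher in Colon 26 tumors (adjusted p = 6.97e-07). Ctnnd2, delta catenin, rose by 3.99 ± 0.90 in CT-26 (adjusted p = 0.00403) and was at least 13.2-fold higher in Colon 26 tumors (adjusted p = 4.25e-05), and Nectin2 fell by 1.23 ± 0.09 in CT-26 (adjusted p = 9.88e-06).

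As a description of patterns over the 30 libraries, the genes most like each member were found by Pearson correlation of log2 CPM. The libraries share their line and their growth as culture or tumor, which shape every such value. The most alike were Trem1 and Tgm1 for Cdh1 (0.965 and 0.963), Dlg5 and Adamtsl3 for Cdh2 (0.973 and 0.973), Flot2 and Cdc42ep4 for Vim (0.970 and 0.963) and Acvr1 and Rcor3 for Fn1 (0.870 and 0.861). For the factors they were Igf1r and the pseudogene Sms-ps for Zeb1 (0.928 and 0.925), Camk2d and Rictor for Zeb2 (0.916 and 0.900), Paxx and Tns1 for Snai1 (0.953 and 0.944), Acp1 and Wapl for Snai2 (0.960 and 0.951) and Bcl6b and Sox2 for Twist1 (0.896 and 0.888). Epcam, with its sparse counts, gave Slc12a2 and D130058E05Rik (0.738 and 0.724), which is no finding.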

How the data were processed

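RNA-seq was measured in 30 libraries of CT-26 and Colon 26 cultures and tumors. RNA was purified, poly-A mRNA libraries were made with the TruSeq kit, and both ends were sequenced on the HiSeq X. With Array Studio and the Ensembl 78 gene models the authors made estimated counts per gene and deposited them without normalization; 22.6% of the non-zero values are not whole numbers (tolerance 1e-06), and FPKM, normalized by the authors to gene length and library size. Aligner, genome build and handling of strand are not given in the sources used here. Estimated counts were rounded before testing, although the design spoke of counts. No column of per-library values was left unused (0 columns).

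The edgeR quasi-likelihood test (edgeR 4.0.16, limma 3.58.1, R 4.3.3) was fitted with TMM normalization and edgeR's filter on low counts to the libraries of each comparison only, and p-values were adjusted by Benjamini-Hochberg over all genes tested. The thresholds for DE (adjusted p up to 0.1, 2-fold or more) follow the study, and the submitters' processing notes name DESeq2 1.24.0. Standard errors were derived from the F statistic. CPM used TMM library sizes over all 30 libraries and FPKM was used only to compare levels between genes. Where no library of a group exceeded 3 counts, folds were computed against 3 counts as lower bounds, which cover counting error only. Interactions were contrasts of 4 group means. The fit was tested on simulated data before use. All 42 pairs of replicates differed by more than counting noise (variance 2.91 to 73.9 times that of counting).

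The members and lists were chosen with earlier results of these data known. All 10 members are named in the text, along with the 2 DE genes with the largest change in each direction from each list in the model differences in cultures and tumors of 100 mm3 and in tumors against cultures, the 2 genes most like each member, and the marker genes. Tjp1, Esrp1, Esrp2, Ovol1, Ovol2, Foxa1, Ctnna1, Ctnnb1 and Id2 were named after their values were seen. The values of Krt18, Krt19, Tnc and Cdx2 in tumors above 100 mm3 were also chosen after they were seen. The values of 1 gene of the epithelial list are not reported here. Gene positions are those of GRCm38 in GENCODE (52207 of 53431 identifiers matched), and sequences are from RefSeq GRCm38.p6. The alternatives were DESeq2 1.42.0 with default parameters, RLE normalization, library size only, no filter, all 30 libraries in one fit, no minimum fold change, marker sums in FPKM, and fits that each lack 1 replicate. The fit of 24 tumors with size as a covariate was chosen after seeing the data. Summaries were made in Python 3.11.15 (pandas 2.3.3) and figures in matplotlib 3.10.9.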

Additional observations from a re-analysis of the deposited data

Results flagged for a closer look

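Among 60 groups of 4 tumors, 1 member in 1 group each, 2 held a library far from the other 3 by Dixon's criterion at the 95% level, where chance gives about 1 in 20. Vim in Colon 26 tumors of 100 mm3 was 8408 CPM in replicate 2, below the other 3, and Fn1 in Colon 26 tumors of 400 mm3 was 3363 CPM in replicate 1, below the other 3. These are the 2 libraries with the highest sums of skeletal muscle genes, 1202 and 2323 CPM, and the part of muscle in the 2 values was not tested.

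The difference between the models changed from cultures to tumors of 100 mm3, by an interaction term with an adjusted p (edgeR) of at most 0.1, in 5 of 9 members tested. The share of all genes was 51%, so the count is near that of genes at large. Twist1 changed by -0.81 (adjusted p = 1.73e-06), with Colon 26 the higher in 3 of 3 cultures and the lower in 4 of 4 tumors. Zeb2 changed by 0.55 (adjusted p = 0.0111), Snai2 by -0.53 (adjusted p = 0.0164), Snai1 by 0.39 (adjusted p = 0.0790) and Fn1 by 0.56 (adjusted p = 0.0935).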

How the results depend on the processing

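Of 50 results of single members with an adjusted p of at most 0.1, 40 kept it under every alternative run. The other 10 were Fn1 in cultures, Cdh1 at 100 mm3, Zeb2 at 400 mm3, Cdh2 in CT-26 and Fn1 in Colon 26 against cultures, Vim, Fn1 and Zeb2 in Colon 26 at 800 against 100 mm3, and Fn1 and Snai1 in the interaction of model and tissue. No paired analysis was possible because the labels carry no replicate numbers. The lines and their culture libraries, and tumors and their host cells, cannot be told apart by any alternative here.

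With no minimum fold change, which drops the fold required, the DE members were 8 in cultures, 8, 4 and 6 in tumors of 100, 400 and 800 mm3, 8 and 8 in CT-26 and Colon 26 tumors against cultures, 3 in Colon 26 at 800 against 100 mm3 and 5 in the interaction of model and tissue. The shares of all genes were, in the same order, 82.6%, 56.5%, 52.2%, 59.4%, 75.5%, 78.9%, 6.67% and 51%. With no filter Epcam was tested, and 1 member was DE between the models at 800 mm3 and 1 in Colon 26 at 800 against 100 mm3. In that last comparison 1 member, Epcam, was also DE with all 30 libraries in one fit and 1 with DESeq2, and DESeq2 made 1 member, Cdh1 (-1.28, adjusted p = 0.0725, lowest of its alternatives), DE in the interaction of model and size. With 24 tumors and size as a covariate 0 members were DE between the models, 8 of 9 passing on the adjusted p alone (72% of all genes).

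Leaving out each replicate in turn gave 1 to 1 DE members in cultures, 0 to 1 at 100 mm3, 0 to 0 at 400 mm3, 0 to 1 at 800 mm3, 4 to 4 in either model against cultures, 0 to 1 in CT-26 at 400 against 100 mm3, 0 to 0 in CT-26 at 800 and in Colon 26 at 400 against 100 mm3, 0 to 1 in Colon 26 at 800 against 100 mm3 and 0 to 0 in both interactions.

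Some differences near 0 turned sign, all of them without passing the test. Zeb2 in Colon 26 tumors against cultures was -0.018 with library size only and -0.012 with no filter. Cdh2 in Colon 26 at 800 against 100 mm3 was 6.0e-05 (RLE), 4.5e-05 (library size only), 0.014 (no filter), 0.0085 (all 30 libraries) and 1.5e-04 (DESeq2). In the interaction of model and size Zeb2 was 6.0e-04 (RLE), 0.016 (library size only) and 2.5e-04 (DESeq2), and Cdh2 -0.0040 (no filter). Leaving out a replicate turned the sign in 15 results, over ranges of -0.20 to 0.014 (Zeb2, models at 100 mm3), -0.31 to 0.013 (Cdh1, models at 800 mm3), -0.039 to 0.043 (Zeb2, Colon 26 tumors against cultures) and -0.042 to 0.027 (Cdh2, CT-26 at 800 against 100 mm3). In Colon 26 at 400 against 100 mm3 they were -0.13 to 0.34 (Cdh1), -0.15 to 0.14 (Snai1), -0.13 to 0.029 (Vim) and -0.013 to 0.16 (Cdh2), and at 800 against 100 mm3 -0.029 to 0.015 (Cdh2) and -0.093 to 0.032 (Snai2). In the interaction of model and size they were -0.22 to 0.11 (Fn1), -0.14 to 0.079 (Zeb2), -0.044 to 0.12 (Twist1), -0.040 to 0.038 (Cdh2) and -0.043 to 0.079 (Zeb1).

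Counts of DE genes that moved by over 1.5 times were those without a minimum fold change (11842 in cultures, 8710, 7963 and 9213 between tumors of 100, 400 and 800 mm3, 11601 and 12581 in CT-26 and Colon 26 tumors against cultures, 1028 in Colon 26 at 800 against 100 mm3, 8421 and 13 in the interactions with tissue and size, against 3283, 2038, 2176, 2192, 4952, 4296, 205, 2904 and 5), 3469 against 2192 at 800 mm3 with no filter, and those of growth, which were 0, 0, 2 and 205 (CT-26 at 400 and 800, Colon 26 at 400 and 800 against 100 mm3), 150, 39, 42 and 309 with DESeq2, 379, 92, 25 and 100 with all 30 libraries, and 6 and 6 at 400 mm3 with no filter. The interaction of model and size had 5 DE genes, 114 with DESeq2, 39 with all 30 libraries and 3 with library size only or no filter. Among the scalings, DESeq2 moved the median log2 fold change of all genes by over 0.1, from 0.01 to -0.10 in cultures, from 0.05 to 0.19 in Colon 26 tumors against cultures and from -0.02 to 0.14 in the interaction of model and tissue. The cause of these shifts was not tested.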
